A study of Mus musculus with 6 samples.

Results

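The 10 genes described here encode transcription factors of the oligodendrocyte lineage: Olig1, Olig2, Sox10, Sox8, Nkx2-2, Nkx6-2, Myrf, Zfp488, Zfp536 and Tcf7l2. They were chosen by symbol, and all 10 were found among the 54532 genes of the deposited table. RNA-seq was performed on hippocampal tissue of wild-type (WT) and transgenic (TG) mice, with 3 libraries in each group, named WT1 to WT3 and TG1 to TG3. In TG mice the G82R and L85P substitutions sit in the endogenous Slc1a2 gene, which encodes the astrocytic glutamate transporter GLT-1. The change was introduced by CRISPR-Cas9 knock-in on the C57BL/6N background, and the WT mice are littermates without it. Because the knock-in sits in the germline, every cell that uses Slc1a2 carries it. The labels give no age, sex or treatment for these mice and do not state how many animals went into a library, so the spread between libraries may be partly technical.

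Oligodendrocytes are the myelinating glia of the central nervous system and arise from proliferating precursor cells. Olig1 and Olig2 (basic helix-loop-helix factors) and Sox10 and Sox8 (HMG-box factors) establish and maintain the lineage. Nkx2-2, Zfp488 and Tcf7l2 act around the exit from the precursor state, while Myrf, together with Sox10, switches on the myelin genes in differentiating cells. In bulk tissue, a lower level of such a gene can mean fewer cells of the lineage or less RNA per cell, and the 2 cannot be told apart.

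Promoter sequence was available from RefSeq (GRCm38.p6) for 7 of the 10 genes, in 8 windows, with none for Olig1, Sox10 and Myrf. The 250 bases upstream of each start were searched on both strands for 9 short words: CAGCTG (an E-box of the kind Olig proteins bind), ACAAAG and also ACAATG for SOX factors, CTGGCAC and also CTGGTAC for Myrf, ATCAAAG for Tcf/Lef factors (it shares CAAAG with a SOX word), TCAAGTG and also TTAAGTG for Nkx2 factors, and TAATTA for homeodomain factors. Printed here, 5′ to 3′ on the strand of the gene, is the stretch that lies outside the gene as the deposited table bounds it for the pair of genes with an unadjusted p under 0.05 between TG and WT, Nkx6-2 and Olig2, and for Tcf7l2, which held the most words. Capitals mark a searched word as it reads on the gene's strand.
Nkx6-2, chr7:139582798-139583047, minus strand: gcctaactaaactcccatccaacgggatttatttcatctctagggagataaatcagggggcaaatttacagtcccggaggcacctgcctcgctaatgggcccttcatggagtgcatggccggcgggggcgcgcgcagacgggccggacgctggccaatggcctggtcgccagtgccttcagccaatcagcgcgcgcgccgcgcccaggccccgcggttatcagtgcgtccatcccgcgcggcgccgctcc
Olig2, chr16:91225300-91225456, plus strand: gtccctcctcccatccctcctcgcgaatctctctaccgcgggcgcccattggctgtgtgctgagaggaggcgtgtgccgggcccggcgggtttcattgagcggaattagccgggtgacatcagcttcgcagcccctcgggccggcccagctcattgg
Tcf7l2, chr19:55741560-55741809, plus strand: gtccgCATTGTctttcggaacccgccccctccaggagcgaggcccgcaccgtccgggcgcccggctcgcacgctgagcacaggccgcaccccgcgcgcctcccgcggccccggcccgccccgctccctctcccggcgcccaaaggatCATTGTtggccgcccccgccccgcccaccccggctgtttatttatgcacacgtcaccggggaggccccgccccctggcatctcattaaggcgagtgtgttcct
None of the 9 words occurred in the Nkx6-2 window, nor in those of Sox8 and Zfp488. The Tcf7l2 sequence held CATTGT, the reverse complement of the SOX word ACAATG, at 245 to 240 and again at 103 to 98 bases before the start, a word present on either strand in 10.7% of 32851 mouse promoter windows. A second RefSeq window of Tcf7l2, at an internal start, held CTTTGT, the reverse complement of ACAAAG (16.5% of windows). Olig2 held CATTGT at 68 to 63 bases before the RefSeq start, in the part of its window that falls inside the gene and is not printed. Nkx2-2 held the Nkx2 word as CACTTGA (2.68% of windows) and Zfp536 held TAATTA (4.84% of windows), both in windows that lie within the gene as the table bounds it. At least 1 of the 9 words was found in 45.6% of all windows, and a match describes the letters of the window and not a bound site.

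The libraries held 16081281 to 18751057 reads on genes, and 3 reads on a gene of 1 kb corresponded to 0.160 to 0.190 FPKM (fragments per kilobase of gene, scaled to the depth of the library). All 10 genes passed the filter of a mean of at least 0.1 FPKM. Markers of hippocampal excitatory neurons were present in each library, with the summed level of 8 genes between 561.8 and 631.2 FPKM. A set of 14 choroid plexus markers was present at a summed 1218 FPKM in TG1 and 3842 FPKM in TG2, against 67.1 FPKM in TG3 and 58.5 to 83.5 FPKM in WT mice. All 14 were higher on average in TG mice, and none was at 0 in any library. Its part in the results below was not tested beyond the fits with the score as a covariate and the comparison without these libraries. Slc1a2, the gene changed in TG mice, was measured at 202, 199.5 and 177 FPKM in WT1 to WT3 and at 222, 207 and 217 FPKM in TG1 to TG3. All TG libraries lay above all WT libraries, as for 6.35% of all genes tested, with a log2 fold change of 0.16 (SE 0.0856) and an adjusted p of 0.789 (limma), and the transcript level does not test a change of amino acids.

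The level of each factor in WT hippocampus was examined first. The 10 genes spanned a 154-fold range of mean FPKM, from Olig1 at 57.7 ± 6.29 (SD, n = 3) to Tcf7l2 at 0.374 ± 0.0742. Sox10 (16.1 ± 2.06), Sox8 (13.5 ± 1.11) and Olig2 (11.7 ± 0.679) followed Olig1, and Nkx6-2 (8.36 ± 0.893) and Myrf (6.48 ± 1.36) came next. Zfp536 (2.90 ± 0.703), Nkx2-2 (1.11 ± 0.177) and Zfp488 (0.922 ± 0.136) were lower. The WT ranges overlapped for 3 neighbouring pairs, Sox10 with Sox8, Nkx6-2 with Myrf and Nkx2-2 with Zfp488, so these pairs were not separated in level, and the other neighbours did not overlap. In TG mice the first pair and the second pair each changed places, and the remaining genes kept theirs.

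**Figure D1:**
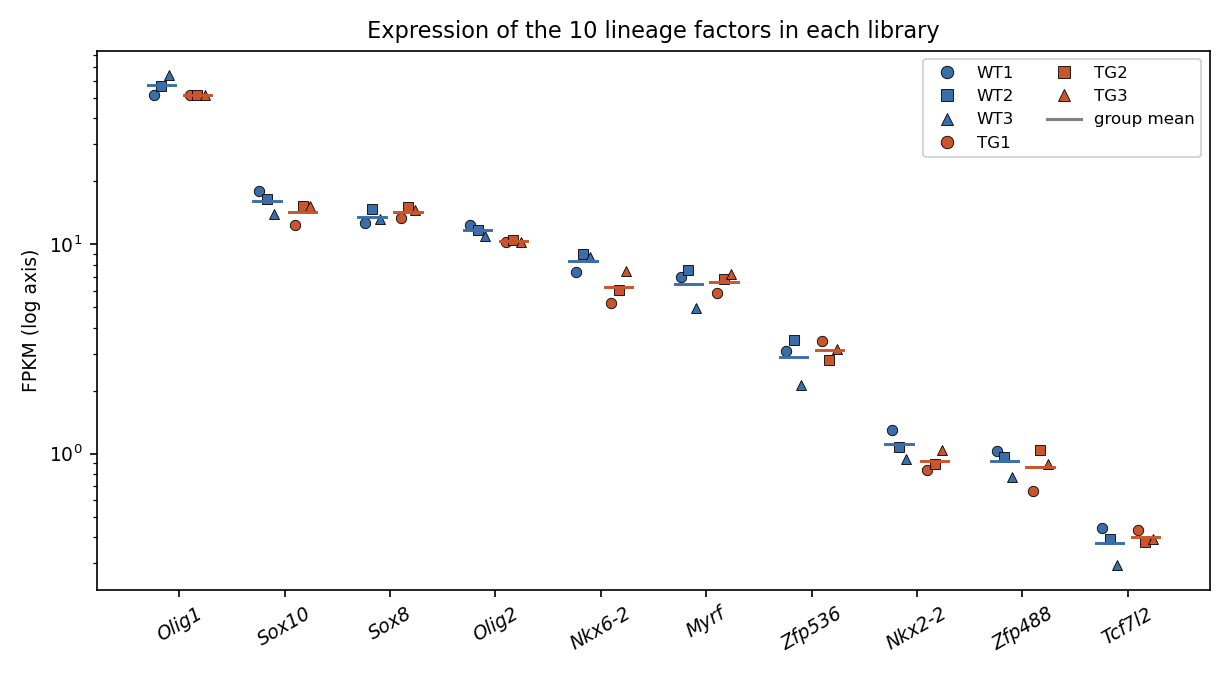
FPKM of the 10 factors in each library on a log axis, ordered by the WT mean, with WT in blue, TG in orange, a symbol for each replicate and a bar for the mean of 3 libraries. Olig1 lies far above the rest, between 51.6 and 64.2 FPKM, Tcf7l2 lies at 0.439 FPKM or less, and only for Olig2 does every TG point lie below every WT point.

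To determine whether the factors differed between TG and WT mice, each was tested in a fit over 20952 genes. No factor reached an adjusted p under 0.05 in limma, nor with limma-voom on the recovered reads, and 2 factors, Nkx6-2 and Olig2, had an unadjusted p under 0.05 with a lower level in TG mice, compared with 2.78% of all genes tested. The number was 0 without WT2, TG1 or TG2 and 1 without WT3 or TG3, and without WT1 the pair was Nkx6-2 and Olig1. Among 1074 genes with a transcription factor family in the table, 1.86% were lower at that threshold. No factor was higher at an unadjusted p under 0.05 (3.13% of all genes). Olig2 was the only factor whose groups did not overlap, with all TG libraries below all WT libraries, as was the case for 5.71% of all genes. At an adjusted p under 0.05, 0.00955% of all genes were called. The fold change was below 0 for 6 factors and above 0 for 4, and the median over the 10 was -0.13 on the log2 scale, against 0.00 (-0.002) over all genes and 0.04 over the transcription factor genes. Without TG1 the median over the factors was -0.01, and without WT1 it was -0.05. For 7 of the 10 factors the difference between the group means was smaller than the larger of the group SDs.

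**Figure D2:**
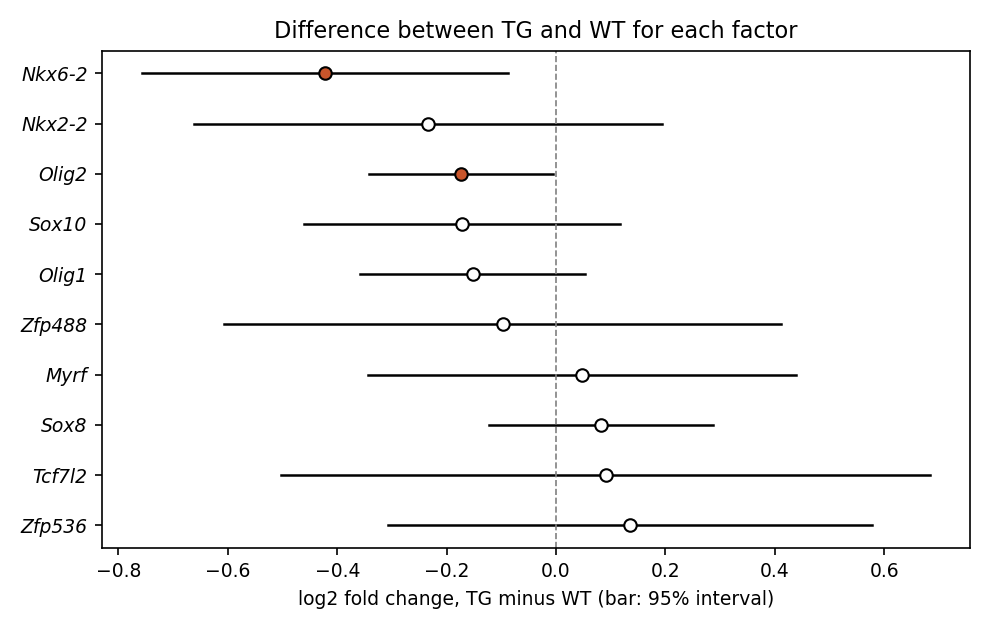
Log2 fold change of TG against WT on the log2(FPKM + 0.1) scale for each factor, with the 95% interval from limma as a bar and filled points for an unadjusted p under 0.05. The intervals of Nkx6-2 and Olig2 lie below 0, that of Olig2 with its upper end at -0.01, and the other 8 cross 0.

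Nkx6-2 encodes a homeodomain repressor found in myelinating oligodendrocytes, and it lies on chromosome 7 (chr7:139579376-139582797, minus strand, GRCm38). The study names it with its genes decreased in TG mice, taken from these same libraries, so its direction here is not independent evidence. The cutoffs of the study included an adjusted p under 0.05, which Nkx6-2 did not reach in the fit here. Its level was 7.35, 9.03 and 8.71 FPKM in WT1 to WT3 and 5.27, 6.03 and 7.46 FPKM in TG1 to TG3, from 159 to 311 reads. TG1 and TG2 lay below every WT library, whereas TG3 lay just above WT1, so the groups overlapped. The mean fell by 25.2% on the FPKM scale, and the log2 fold change was -0.42 (SE 0.143, 95% interval -0.76 to -0.09), which was the largest among the 10 factors. The unadjusted p was 0.0203 and the adjusted p was 0.786, with adjusted p-values between 0.636 and 1.00 over the other settings.

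The call of Nkx6-2 at an unadjusted p under 0.05 was lost without any of 4 libraries, although the fold change stayed below 0. The log2 fold change was -0.37 without WT2 (unadjusted p = 0.0851), -0.39 without WT3 (0.0699), -0.31 without TG1 (0.0781) and -0.40 without TG2 (0.0690). Without both TG1 and TG2, the libraries with choroid plexus markers, the log2 fold change was -0.16 (unadjusted p = 0.383), a comparison that leaves 1 TG library and assumes that it varies like the WT libraries. With the choroid plexus score as a covariate it was -0.21 (unadjusted p = 0.286), and with the score of mature oligodendrocyte markers it was -0.31 (unadjusted p = 0.126). Over the 6 libraries, the correlation of Nkx6-2 with the choroid plexus score was -0.84 and with the mature oligodendrocyte score 0.70, where all points share the group difference. The last 277 bases of Nkx6-2 overlap Inpp5a on the opposite strand (5.82 to 7.70 FPKM), and the strand setting of the counting was not stated, so reads there cannot be assigned with certainty.

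Olig2 and Olig1 are neighbours on chromosome 16 (chr16:91225457-91228677 and chr16:91269772-91271933, both on the plus strand). Olig2 is needed to specify the lineage, and it was measured at 12.3, 11.7 and 11.0 FPKM in WT1 to WT3 and at 10.3, 10.5 and 10.2 FPKM in TG1 to TG3. The highest TG library lay just under the lowest WT library. The mean fell by 11.5%, with a log2 fold change of -0.17 (SE 0.0716, 95% interval -0.34 to -0.01), an unadjusted p of 0.0447 and an adjusted p of 0.786. The direction was the same in all 18 alternatives, but the unadjusted p stayed under 0.05 in only 6 of them. The log2 fold change was -0.13 without WT1 (unadjusted p = 0.111), -0.17 without WT2 (0.0697), -0.22 without WT3 (0.0109), -0.17 without TG1 (0.0718), -0.18 without TG2 (0.0639), -0.17 without TG3 (0.0922) and -0.18 in limma-voom (0.0844), so the size of the difference moved less than the p. It was -0.20 with the choroid plexus score as a covariate (0.125) and -0.19 without both TG1 and TG2 (0.141). The adjusted p ranged from 0.636 to 1.00 over these alternatives.

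Olig1, which promotes the maturation of oligodendrocytes, was present at 51.7, 57.2 and 64.2 FPKM in WT1 to WT3 and at 51.6, 51.6 and 51.8 FPKM in TG1 to TG3. WT1 was level with the TG libraries, WT3 was the highest, and the groups overlapped. The 3 TG values had a coefficient of variation (CV) of 0.223%, below the 2.12% that counting alone gives a WT library at this depth, whereas the WT values had a CV of 10.9%. The log2 fold change was -0.15 (SE 0.0879, adjusted p = 0.789), and it was -0.23 without WT1 (unadjusted p = 0.0295) and -0.07 without WT3. The ratio of Olig1 to Olig2 was 4.19, 4.89 and 5.85 in WT1 to WT3, against 5.03, 4.92 and 5.07 in TG1 to TG3, so the group means of 4.975 ± 0.834 and 5.005 ± 0.0789 differed by less than the WT spread. Within WT mice the pair ran in opposite orders, with Olig1 highest and Olig2 lowest in WT3.

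Sox10 is a direct activator of myelin genes and Sox8 is a relative with partly shared roles. Sox10 (chr15:79154908-79165240, minus strand) was measured at 18.0, 16.4 and 13.9 FPKM in WT1 to WT3 and at 12.4, 15.2 and 15.2 FPKM in TG1 to TG3. TG1 was the lowest library and WT3 lay below TG2 and TG3. The log2 fold change was -0.17 (SE 0.123, 95% interval -0.46 to 0.12, adjusted p = 0.789), and it was -0.07 without TG1 and -0.27 without WT3. It turned to 0.02 with the mature oligodendrocyte score as a covariate, a score that is largely made of listed targets of Sox10 and Myrf. Sox8 (chr17:25565892-25570686, minus strand) was measured at 12.6, 14.8 and 13.2 FPKM in WT mice and at 13.3, 15.1 and 14.7 FPKM in TG mice. These ranges overlapped widely, with a log2 fold change of 0.08 (SE 0.0872, 95% interval -0.12 to 0.29, adjusted p = 0.818). It was 0.03 without WT1, 0.15 without WT2, 0.14 without TG1 and 0.05 without TG2. The ratio of Sox8 to Sox10 was 0.703, 0.901 and 0.950 in WT1 to WT3, against 1.08, 0.994 and 0.961 in TG1 to TG3. Every TG ratio lay above every WT ratio, with TG3 only just above WT3. The pattern was noticed among 8 ratios after their values were seen and was not tested. Over the 6 libraries the correlation of the log2 levels of Sox10 and Sox8 was 0.06.

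Myrf is the membrane-bound factor that drives the myelin programme once precursors differentiate. Myrf (chr19:10208272-10240748, minus strand) was measured at 6.96, 7.54 and 4.95 FPKM in WT1 to WT3 and at 5.82, 6.83 and 7.22 FPKM in TG1 to TG3. WT3 was the lowest library and the groups overlapped. The log2 fold change was 0.05 (SE 0.167, 95% interval -0.34 to 0.44, adjusted p = 0.950), and its sign rested on single libraries, since it was -0.13 without WT3 and -0.02 without TG3. Correcting the libraries for the length and GC content of genes gave -0.08. The ratio of Myrf to Sox10 averaged 0.401 ± 0.0531 in WT and 0.465 ± 0.0130 in TG mice, with the WT2 ratio above that of TG2.

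Nkx2-2, Zfp488 and Tcf7l2 take part in the step from precursor to differentiating cell, and these were the least abundant members, with 38 to 82 reads in a library. Nkx2-2 (chr2:147177546-147194243, minus strand) was measured at 1.30, 1.08 and 0.947 FPKM in WT1 to WT3 and at 0.835, 0.893 and 1.04 FPKM in TG1 to TG3. TG1 and TG2 lay below every WT library and TG3 above WT3. The log2 fold change of Nkx2-2 was -0.23 (SE 0.182, 95% interval -0.66 to 0.19, adjusted p = 0.789), with -0.12 without WT1. The antisense genes Nkx2-2os and 6430503K07Rik overlap it, and their reads cannot be told apart from its own without strand.

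Zfp488 (chr14:33967070-33978764, minus strand), a zinc finger partner of Olig2, was measured at 1.03, 0.964 and 0.770 FPKM in WT1 to WT3 and at 0.661, 1.04 and 0.888 FPKM in TG1 to TG3. The highest and the lowest value were both found in TG mice. Its log2 fold change was -0.10 (SE 0.217, adjusted p = 0.920), and 0.06 without TG1. Tcf7l2 (chr19:55741810-55933654, plus strand), a nuclear partner of beta-catenin in Wnt signalling, was measured at 0.439, 0.390 and 0.293 FPKM in WT1 to WT3 and at 0.434, 0.377 and 0.393 FPKM in TG1 to TG3. The TG values lay inside the WT range. Its log2 fold change was 0.09 (SE 0.253, 95% interval -0.50 to 0.68, adjusted p = 0.938), and -0.04 without WT3. With 48 to 71 reads in a library, counting alone gives a CV of 13.1% in WT mice beside the 19.8% observed. The 95% interval of the ratio of TG to WT ran from 0.705 to 1.61. With this spread between libraries, ratios within that range are not excluded, and the interval is not a limit of detection.

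Zfp536 (chr7:37472135-37773641, minus strand), a zinc finger repressor found in neural cells, was measured at 3.08, 3.50 and 2.13 FPKM in WT1 to WT3 and at 3.45, 2.81 and 3.17 FPKM in TG1 to TG3. WT3 was the lowest and WT2 the highest, with all TG libraries between them. Its log2 fold change was 0.14 (SE 0.189, 95% interval -0.31 to 0.58, adjusted p = 0.864), and -0.07 without WT3.

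**Figure D3:**
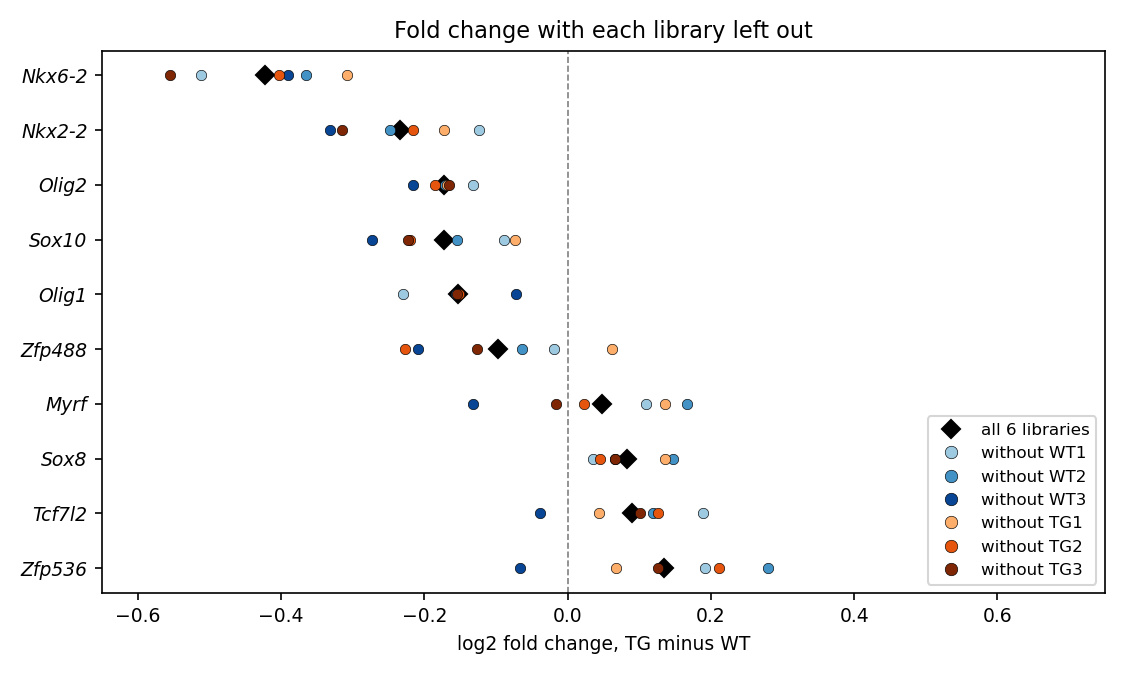
Log2 fold change of TG against WT for each factor with all 6 libraries (diamonds) and with each library left out in turn (circles, blue for a WT and orange to brown for a TG library). Nkx6-2, Nkx2-2, Olig2, Sox10 and Olig1 stay below 0 and Sox8 stays above 0, whereas Zfp488, Myrf, Tcf7l2 and Zfp536 cross 0 when 1 library is left out.

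The spread between libraries of a group was then compared across the factors. WT3 was the lowest WT library for 7 of the 10 factors, and TG1 was the lowest of all 6 libraries for 4. The SD was larger in WT than in TG mice for 8 factors. Genes of at least 8000 bases had a median of -0.11 in WT3 and 0.12 in TG1 relative to the WT mean on the log2 scale, and genes under 2000 bases had a median of 0.13 in WT3 and -0.18 in TG1. Myrf, Zfp536 and Tcf7l2, with gene lengths of 8562, 9218 and 8739 bases, belong to the long class, and Nkx6-2, with 1907 bases, to the short class. With length and GC content corrected together, the log2 fold change of Myrf went from 0.05 to -0.08, that of Zfp536 from 0.14 to 0.00 (0.00125) and that of Tcf7l2 from 0.09 to 0.02, while that of Nkx6-2 was -0.45. The part of gene length alone was not tested.

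Factors also differed in which libraries were high. The log2 levels of Sox10 followed those of Nkx2-2 (Pearson r = 0.90) and Zfp488 (r = 0.90), and Zfp536 followed Tcf7l2 (r = 0.87), while Olig1 and Tcf7l2 ran opposite (r = -0.87). These are descriptions over 6 libraries among 45 pairs, and the libraries share their depth, length profile and group. The score of 14 mature oligodendrocyte markers had r = 0.96 with Sox10, 0.88 with Nkx2-2 and 0.84 with Zfp488, but 0.08 with Olig1 and -0.02 with Tcf7l2. The score of 10 precursor markers had r = 0.96 with Tcf7l2 and -0.78 with Olig1.

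All 14 mature oligodendrocyte markers had a fold change below 0, with a summed level of 744.4 to 942.2 FPKM in WT mice and 596.5 to 865.1 FPKM in TG mice, none at 0 in any library. The score was lowest in TG1, at -0.60 on the log2 scale relative to the WT mean, beside -0.17 in TG2 and -0.05 in TG3. The ranges of the precursor markers overlapped, with a summed level of 42.8 to 52.4 FPKM in WT and 49.4 to 54.0 FPKM in TG mice. With the mature oligodendrocyte score as a covariate, the median fold change over the 10 factors was 0.08 in place of -0.13. However, 12 of the 14 markers are also listed below as targets of Sox10 and Myrf. The score is thus not independent of the factors, and no conclusion is drawn from any fit that adjusts for it.

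**Figure D4:**
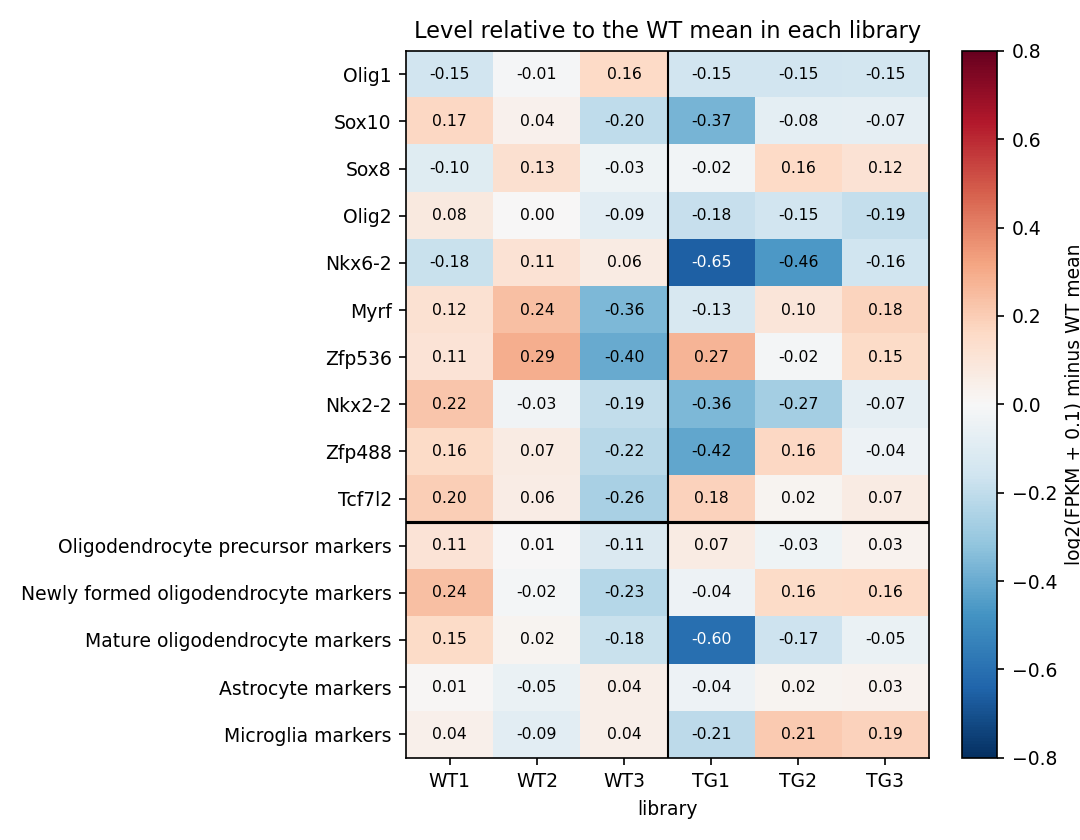
Log2(FPKM + 0.1) of each factor in each library minus its WT mean (upper rows) and the mean of marker genes of 5 glial classes on the same scale (lower rows), with red for higher and blue for lower. Nkx6-2 is lowest in TG1 and TG2, the mature oligodendrocyte markers are lowest in TG1, and WT3 is low for Myrf, Zfp536 and Tcf7l2.

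The genes whose levels over the 6 libraries were most like the mean of the 10 factors were Hdac10 (Pearson r = 0.987), Gm21984 (r = 0.980), Cdc42ep1 (r = 0.976), Gpr12 (r = 0.975) and Ap3m1 (r = 0.974), out of 13317 candidates with a mean of at least 1 FPKM. Hdac10 was measured at 3.22, 3.35 and 2.48 FPKM in WT1 to WT3 and at 2.26, 2.77 and 2.82 FPKM in TG1 to TG3, low in WT3 and TG1 as the mean of the factors was. Hdac10 was picked for this likeness, so the match is not a separate result.

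Other genes of the pathway were then described from 4 lists. Of 12 early or inhibitory regulators of the lineage, 6 had a fold change above and 6 below 0, and none passed an unadjusted p under 0.05, with a median of -0.01 that was 0.06 without WT1. Id2, an inhibitor of basic helix-loop-helix factors and the most abundant of the list, was present at 31.4 ± 3.64 FPKM in WT and 28.7 ± 2.53 FPKM in TG mice, with a log2 fold change of -0.13 (unadjusted p = 0.258, adjusted p = 0.789). Sox5, an antagonist of Sox10 in precursors, had the smallest p among those above 0, with a log2 fold change of 0.19 (unadjusted p = 0.165, adjusted p = 0.789).

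Of 16 differentiation factors and cofactors, 11 had a fold change above and 5 below 0, and none passed an unadjusted p under 0.05 in limma with all libraries. Leaving out TG1 or TG2 brought 1 gene below this threshold with a lower level, and leaving out TG3 brought 1 with a higher level. Over all 20952 genes, 406 were lower without TG1 and 557 without TG2, and 590 were higher without TG3. The median was 0.09 with all libraries, -0.02 without WT3 and -0.01 with the length and GC correction. Hdac2, a histone deacetylase, was present at 18.3 ± 1.39 FPKM in WT and 16.3 ± 1.10 FPKM in TG mice (log2 fold change -0.17, unadjusted p = 0.0885, adjusted p = 0.789). Tmem98, a membrane protein that binds Myrf and restrains its cleavage, was measured at 6.59, 6.37 and 5.85 FPKM in WT1 to WT3 and at 8.17, 14.1 and 5.93 FPKM in TG1 to TG3. Only TG1 and TG2, the libraries with choroid plexus markers, were above the WT range, and the log2 fold change of 0.49 had an unadjusted p of 0.122. Ctnnb1, the gene of beta-catenin and the most abundant of the list, differed by -0.02 on the log2 scale (adjusted p = 0.950).

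Among 17 target genes of Sox10 and Myrf in myelinating cells, 16 had a fold change below 0, with a median of -0.23, and 1, Opalin, passed an unadjusted p under 0.05 with a lower level (2.78% of all genes), a number that was 0 without WT1, 2 without WT3 and 3 without TG3. For Mog, Cldn11 and Opalin, all constituents of myelin, the TG libraries all lay below the WT libraries, 3 of 17 genes beside 5.71% of all genes. Mog did so only just, at 22.0 FPKM in TG3 and 22.1 FPKM in WT3. All 3 were lowest in TG1, so they do not count as separate observations. The study also names Cldn11 with its genes decreased in TG mice, taken from these same libraries. In the fit here the adjusted p of Cldn11 was 0.786 (limma). Of the 17 genes, 12 are also among the 14 mature oligodendrocyte markers, so the counts are not separate. Opalin, a membrane glycoprotein of myelin, was measured at 12.6, 11.1 and 8.83 FPKM in WT1 to WT3 and at 4.40, 7.47 and 7.38 FPKM in TG1 to TG3, with every TG library below every WT library. Its log2 fold change was -0.77 (SE 0.224, unadjusted p = 0.00983, adjusted p = 0.786). Mbp, the most abundant of the list, had a log2 fold change of -0.07 (adjusted p = 0.930), and Cntn2, the only one above 0, had 0.01 (adjusted p = 0.982). The median of the list was -0.09 without TG1, and -0.03 without TG1 and TG2.

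Of the 12 closest relatives of the members, 9 passed the filter on low values, and Olig3, Nkx6-3 and Bhlhe23 did not. Olig3 was listed at 0 in all 6 libraries. None of the 9 passed an unadjusted p under 0.05, and the median fold change was 0.16, which was 0.24 without WT1, 0.07 without WT3 and 0.08 without TG2. Nkx6-1, Nkx2-9 and Myrfl lay near the filter, at a mean of 0.198, 0.140 and 0.110 FPKM. With only genes of a mean of at least 1 FPKM, the median was 0.06. Tcf7l1, a relative of Tcf7l2, was measured at 0.772, 0.647 and 0.585 FPKM in WT1 to WT3. In TG1 to TG3 it was at 1.08, 0.938 and 0.776 FPKM (log2 fold change 0.42, unadjusted p = 0.0745, adjusted p = 0.786 in limma). The TG values of Tcf7l1 did not overlap the WT values and were higher, in TG3 only just so. Such a separation was seen for 1 of the 9 relatives, beside 6.35% of all genes tested. Prdm8, a repressor that pairs with Bhlhe22, had a log2 fold change of -0.12 (adjusted p = 0.789), and Bhlhe22, the most abundant of the list and a gene of hippocampal neurons, had -0.03 (adjusted p = 0.934).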

How the data were processed

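Hippocampal RNA of WT and TG mice was sequenced, with 3 libraries in each group. The authors counted reads per gene with HTSeq and deposited FPKM for each gene and library, computed from the count and the gene length. The aligner and the strand setting are not given in the sources used here, and the submitters' processing notes name GRCm38 and mm10. The methods and the labels name different extraction and library kits. Dividing the product of FPKM and gene length by the value of 1 read in that library gave whole numbers for 100% of values (tolerance 0.05 reads), which gave the recovered reads. Intervals and limits from reads cover counting error only.

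Of 54532 genes, those whose mean FPKM reached 0.1 (20952) were tested with limma 3.58.1 (R 4.3.3, lmFit and eBayes with a trend) on log2(FPKM + 0.1), two-sided, with no covariate and Benjamini-Hochberg adjustment over all genes tested. Fold changes on this scale understate changes of low genes. With 3 libraries a group, p-values set each difference only against the spread between these libraries, moderated by the trend over all genes tested. Marker scores are means of log2(FPKM + 0.1) relative to WT. The fit was tested on simulated data with changes larger than any measured for the factors. That test does not bear on changes of their size. Alternatives were the pseudocount, the filter, the variance trend, median rescaling, limma-voom on recovered reads (mean of at least 10), the replicate number as a block, marker scores as covariates and left-out libraries, and a length and GC correction was added after seeing the data.

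The members, lists and tests were chosen with earlier results of these data known. All 10 members were named, and of each list the gene with the smallest p in each direction and the most abundant gene, the 5 genes most like the mean of the members, and Slc1a2. Other genes and ratios were named after their values were seen. Marker lists covered mature, newly formed and precursor oligodendrocytes, astrocytes, microglia, choroid plexus, endothelium, thalamic and habenular neurons, interneurons and hippocampal excitatory neurons. Proteins of the members were not analysed here.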

Additional observations from a re-analysis of the deposited data

How the results depend on the processing

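With all libraries, 2 factors had an unadjusted p under 0.05 and a lower level in TG mice, and this number was 1 without the variance trend, with median rescaling, in limma-voom and with the replicate block, and 0 with the choroid plexus score or the mature oligodendrocyte score as a covariate or without TG1 and TG2, where the fold change of Olig2 was -0.20, -0.14 and -0.19 beside -0.17 with all libraries. Leaving out 1 library gave 0 to 2. The replicate numbers did not pair the libraries (correlations of the deviations of same-numbered libraries 0.01, 0.04 and 0.00), and with the replicate block the unadjusted p of Olig2 was 0.0793, while no other call among the factors changed and the fold change of Nkx6-2 stayed at -0.42.

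The median over the factors was -0.01 to -0.17 with 1 library left out and turned to 0.0783 with the mature oligodendrocyte score, which is not independent of the factors. The median of the early regulators was -0.0587 to 0.0565 and that of the cofactors -0.023 to 0.142 with 1 library left out, and the latter was -0.0124 with the length and GC correction. The median of the relatives was 0.00 (0.0047) without the filter on low values. The factors that changed direction were Sox10 (0.0249) and Zfp488 (0.162) with the mature oligodendrocyte score, Myrf (-0.083) with the length and GC correction, and with 1 library left out Myrf (-0.1325 to 0.167), Zfp488 (-0.228 to 0.0622), Zfp536 (-0.0661 to 0.280) and Tcf7l2 (-0.0381 to 0.190). The cause of these changes was not tested. Olig1, Olig2, Sox8, Nkx2-2 and Nkx6-2 kept their direction in all 18 alternatives, and the order of levels in WT mice did not change in those that bear on it. No factor reached an adjusted p under 0.05 in any alternative. Zfp488 and Tcf7l2 had no value at a mean FPKM of at least 1. With 3 libraries a group and at most 82 reads for the least abundant factors, small changes were not detectable.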

Other observations

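Among the remaining marker lists, the newly formed oligodendrocyte markers, which label cells between precursor and myelinating stages, had 4 of 7 genes with a fold change above 0 and a median of 0.08, with a summed level of 35.8 to 44.2 FPKM in WT and 32.1 to 45.9 FPKM in TG mice. The 10 precursor markers had 4 genes with a fold change above 0 and 6 below 0, and a median of -0.015. Gpr17, a receptor of committed precursors, was measured at 6.97, 5.15 and 4.41 FPKM in WT1 to WT3 and at 7.42, 7.69 and 6.80 FPKM in TG1 to TG3. It was the 1 precursor marker of 10 above 0 at an unadjusted p under 0.05 in limma (0.0332, adjusted p = 0.786), beside 3.13% of all genes tested. For Gpr17, TG3 lay below WT1, so the groups overlapped. Matn4 went the other way (log2 fold change -0.21), with every TG library below every WT library, as for 5.71% of all genes tested. Gpr17 and Matn4 were named after their values were seen. Of 8 astrocyte markers, 6 had a fold change above 0 with a median of 0.02, and of 6 microglial markers 4 did, with a median of 0.10. Csf1r, a receptor of microglia, was higher in TG mice at an unadjusted p of 0.0446 (log2 fold change 0.19, adjusted p = 0.786). Endothelial markers had a median of 0.02, and 2 of 5, Flt1 and Slco1c1, were higher at an unadjusted p under 0.05, beside 3.13% of all genes tested. Flt1 had a log2 fold change of 0.24 (unadjusted p = 0.0403, adjusted p = 0.786 in limma) and Slco1c1 had 0.46 (unadjusted p = 0.0447, adjusted p = 0.786 in limma). Slco1c1 was measured at 10.1, 8.86 and 8.60 FPKM in WT1 to WT3 and at 11.2, 17.5 and 10.4 FPKM in TG1 to TG3. It was highest in TG2, the library with the highest summed level of choroid plexus markers, and TG3 lay just above WT1. Whether the 2 are linked was not tested. For Csf1r, Flt1 and Slco1c1 all TG libraries lay above all WT libraries, as for 6.35% of all genes tested. These 3 genes were named after their values were seen. The median was 0.17 for thalamic and habenular markers, 0.00 (-0.0012) for interneuron markers and -0.08 for markers of hippocampal excitatory neurons.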
